A study of Mus musculus with 18 samples.

Results

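The 10 genes *Svil*, *Zeb1*, *Arhgap12*, *Kif5b*, *Epc1*, *Colec12*, *Thoc1*, *Usp14*, *Esco1* and *Mib1* lie near *Ccny* on mouse chromosome 18. Their transcript levels were read in the hippocampus of mice lacking *Ccny* (knockout, KO) and of wild-type (WT) mice. The 10 genes were chosen from the 37 other genes of the table within 5 Mb of *Ccny* and are not the 10 nearest. They are 10 of the 15329 genes of the table and 10 of its 422 genes on chromosome 18. All mice were C57BL/6J and 8 to 10 weeks old. Hippocampi came from untrained mice (WT_Basal and KO_Basal), from mice that had learned a hidden platform in the Morris water maze (original learning, WT_OL and KO_OL), and from mice that then learned a new platform position (reversal learning, WT_RL and KO_RL). Each of the 6 groups held 3 mice with 1 library each. How the *Ccny* allele was made, and in which strain, is not given in the sources used here.

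A gene knocked out in mice is inherited together with the chromosome around it. As general background, neighbours of a targeted gene can carry sequence from the strain in which the targeting was done, and the engineered allele can itself alter regulation of genes nearby. Both kinds of local effect can appear as a genotype difference in genes near the target, and neither has to be alike in every training state. *Ccny* encodes cyclin Y, a membrane-associated cyclin found at synapses. Its neighbours have unrelated roles. *Thoc1* is a subunit of the THO complex that couples transcription to mRNA export, *Usp14* a deubiquitinating enzyme bound to the proteasome, *Esco1* an acetyltransferase of cohesin, *Epc1* a scaffold of the NuA4 histone acetyltransferase and *Zeb1* a zinc finger repressor. *Mib1* is the ubiquitin ligase of Notch ligands, *Kif5b* a kinesin-1 motor chain, *Arhgap12* a GTPase-activating protein, *Svil* the actin-binding protein supervillin and *Colec12* a collectin scavenger receptor.

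On the mm10 build (GRCm38), *Ccny* spans 9312304 to 9450154 of chromosome 18 on the minus strand, so its start lies at the higher coordinate. Beyond that start follow *Colec12* (9707595 to 9882644, plus strand, start 0.257 Mb from that of *Ccny*), *Thoc1* (9957906 to 9995489, plus, 0.508 Mb), *Usp14* (9993066 to 10045119, minus, 0.595 Mb), *Esco1* (10566507 to 10610352, minus, 1.16 Mb) and *Mib1* (10725548 to 10818704, plus, 1.28 Mb). On the other side lie *Epc1* (6435951 to 6516108, minus, 2.93 Mb), *Kif5b* (6201002 to 6242174, minus, 3.21 Mb), *Arhgap12* (6024427 to 6136098, minus, 3.31 Mb), *Zeb1* (5591860 to 5775467, plus, 3.86 Mb) and *Svil* (4920540 to 5119299, plus, 4.53 Mb). The exons of *Thoc1* and *Usp14* overlap at their ends on opposite strands, and those of *Zeb1*, *Kif5b* and *Epc1* overlap antisense transcripts. The strand setting of the authors' read counting is not given in the sources used here, so reads in these overlaps may be shared between the genes.

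The targeted gene separated the genotypes. *Ccny* was at 158, 150 and 158 CPM (read counts scaled to the normalized library total) in WT_Basal and at 95.8, 90.5 and 89.6 CPM in KO_Basal. After original learning it was at 114, 119 and 150 CPM in WT and 75.0, 74.0 and 76.0 CPM in KO mice, and after reversal learning at 148, 128 and 107 CPM in WT and 76.2, 84.3 and 78.6 CPM in KO mice. All 9 KO libraries lay below all 9 WT libraries, as in 0.0196% of all genes, and *Ccny* transcripts were still counted in every KO mouse. Over the 3 training states with equal weight, the difference was -0.72 on the log2(CPM + 1) scale (standard error 0.0612, 95% interval -0.849 to -0.59, adjusted p = 3.31e-05 from limma). An exact permutation of genotypes within training states gave the smallest p that its 8000 arrangements allow, 0.00025. The table does not tell which part of the gene the remaining reads come from. Between 29248557 and 37915576 reads per library fell on listed genes, and 1 read was worth 0.0274 to 0.0333 CPM. The fewest reads behind a neighbour's value were 295, for *Colec12* in one WT_Basal mouse, and pairs of libraries of a group differed by 8.82 to 105 times counting noise (chi-square per gene). WT_OL replicate 2 deviated most from its group median, by a mean of 0.195 log2 units against 0.0372 to 0.153 in the other libraries. This was taken over genes with a mean of at least 1 CPM.

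The neighbours differed widely in abundance. Divided by the length of all annotated exons of the gene, *Kif5b* was the most abundant at 47.3 ± 7.71 CPM per kb (SD over 18 libraries), followed by *Usp14* at 20.5 ± 2.95 CPM per kb and *Arhgap12* at 11.2 ± 1.36 CPM per kb. Each of these exceeded the next gene in all 18 libraries. *Epc1* at 8.47 ± 0.535, *Zeb1* at 8.15 ± 0.431 and *Mib1* at 6.89 ± 1.54 CPM per kb overlapped in range. *Epc1* exceeded *Zeb1* in 13 of 18 libraries and *Zeb1* exceeded *Mib1* in 14. *Mib1* exceeded *Esco1*, at 4.96 ± 0.479 CPM per kb, in 13 libraries. *Esco1* and *Thoc1* (2.65 ± 0.54 CPM per kb) did not overlap. *Colec12* at 1.54 ± 0.316 and *Svil* at 1.19 ± 0.164 CPM per kb were the lowest, in this order in 17 of 18 libraries. Within groups the log2 value was steadiest for *Zeb1* (SD 0.0565) and most variable for *Colec12* (SD 0.277).

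**Figure D1:**
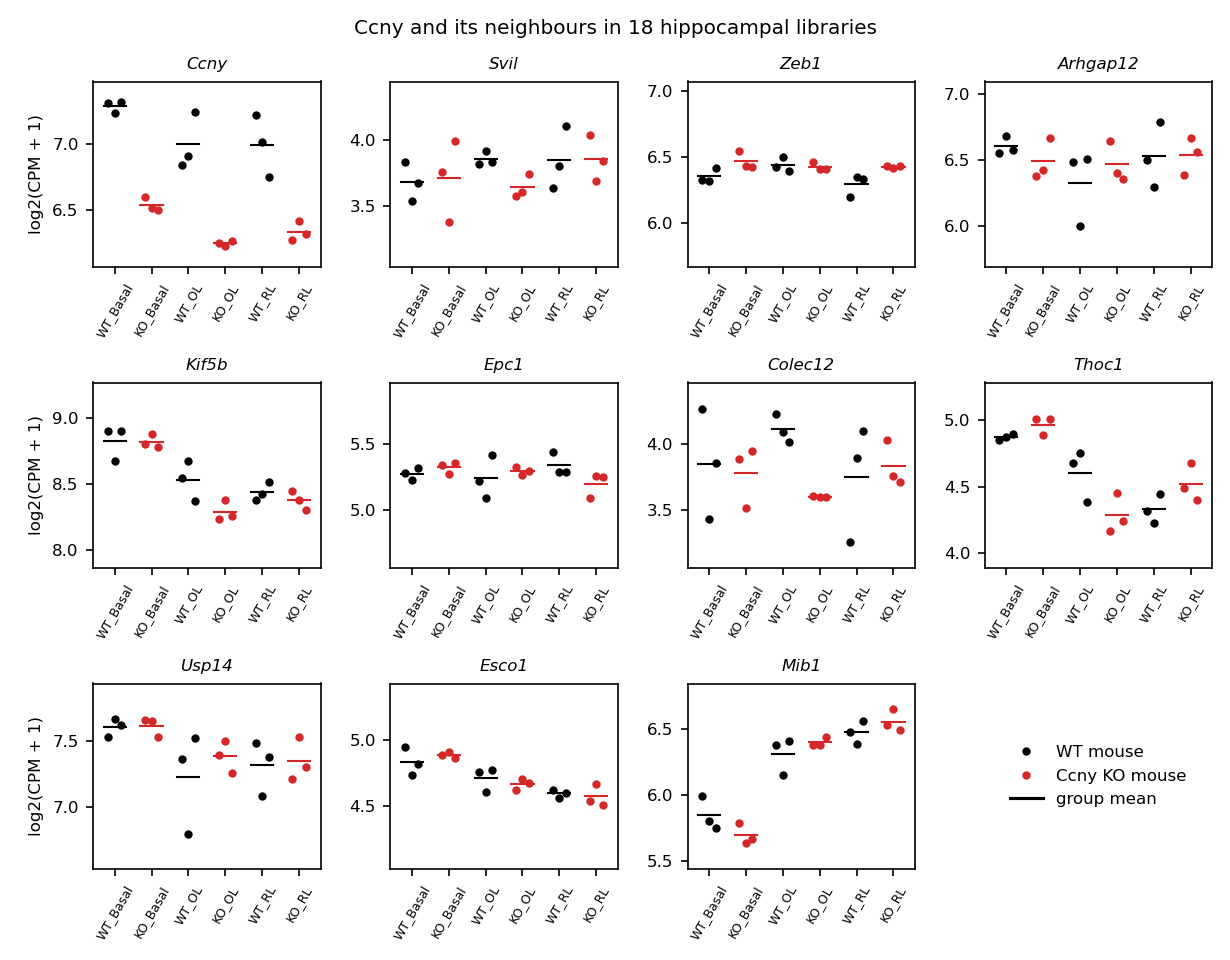
Log2(CPM + 1) of *Ccny* and its 10 neighbours in 18 libraries, with WT mice in black, KO mice in red and bars at the group means of 3 mice, every panel spanning the same height. The genotypes separate in every training state for *Ccny* and in no neighbour in all 3, and *Mib1* is higher, and *Kif5b* lower, after training in both genotypes.

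The first question was whether the knockout shifted its neighbours. None of the 10 genes passed an adjusted p of 0.05 in the comparison of KO and WT over all training states by limma, where 0.0326% of all genes did (5 genes), and 1 of 10 had an unadjusted p under 0.05, against 8.36% of all genes. None separated the 9 KO from the 9 WT libraries. The differences ran from -0.17 for *Colec12* to 0.08 for *Zeb1* on the log2 scale, 4 of them positive and 6 negative. The median of their sizes was 0.0375 log2 units, beside 0.0572 over all genes. The same limma fit with weights from the recovered reads (voom) also called none of the 10.

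The 95% intervals bound what these 18 libraries could have missed in the average over training states, in which opposite differences can cancel. For *Mib1* (difference 0.005), *Esco1* (-0.005), *Epc1* (-0.01) and *Thoc1* (-0.01) the intervals stayed within -0.137 and 0.117 log2 units. *Arhgap12* lay between -0.16 and 0.183, *Svil* between -0.241 and 0.117 and *Usp14* between -0.115 and 0.245 log2 units. The interval of *Colec12* was the widest, from -0.414 to 0.081 log2 units, and its difference was -0.248 without WT_RL replicate 1 (exact permutation p = 0.045) and -0.097 without WT_Basal replicate 1. In this average the lower bound of *Colec12* was nearer to 0 than the upper bound of the interval of *Ccny*, -0.59. In the OL state alone the 2 intervals overlapped, -0.943 to -0.084 for *Colec12* and -0.974 to -0.525 for *Ccny*. The average of *Thoc1* joined log2 differences of 0.093 in Basal, -0.317 in OL (95% interval -0.537 to -0.097) and 0.193 in RL (-0.027 to 0.413). Its narrow interval thus does not bound the difference within a single state.

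*Zeb1* and *Kif5b* had the smallest p of the 10. *Zeb1* measured 79.4, 79.0 and 84.4 CPM in WT_Basal against 92.5, 85.3 and 85.0 CPM in KO_Basal. In the trained mice it was at 84.9, 89.5 and 83.0 CPM in WT_OL, 87.1, 83.9 and 84.0 CPM in KO_OL, 72.2, 80.7 and 79.8 CPM in WT_RL, and 85.4, 84.4 and 85.1 CPM in KO_RL. The KO mice thus lay above all WT mice in the Basal and RL states and among them in the OL state. The difference over the states was 0.08 on the log2 scale (standard error 0.0348, 95% interval 0.004 to 0.151, adjusted p = 0.572 from limma), or 1.06-fold. The exact permutation p was 0.0182, one of 10 such tests and not adjusted for them. In the OL state the *Zeb1* difference was -0.01 log2 units, and without single mice it ran from -0.036 to 0.018.

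*Kif5b* was lower in KO mice by a difference of -0.10 log2 units (standard error 0.0493, 95% interval -0.207 to 0.002, adjusted p = 0.607 from limma, exact permutation p = 0.0653). This value came mainly from the OL state, where *Kif5b* measured 373, 407 and 331 CPM in WT and 300, 332 and 305 CPM in KO mice. In the Basal state this motor chain ran from 408 to 478 CPM in WT and 439 to 470 CPM in KO mice, and in the RL state from 331 to 364 and 315 to 347 CPM. The genotypes overlapped in all 3 states. The exact permutation p of the other 8 genes ran from 0.244 for *Colec12* to 0.929 for *Mib1*.

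**Figure D2:**
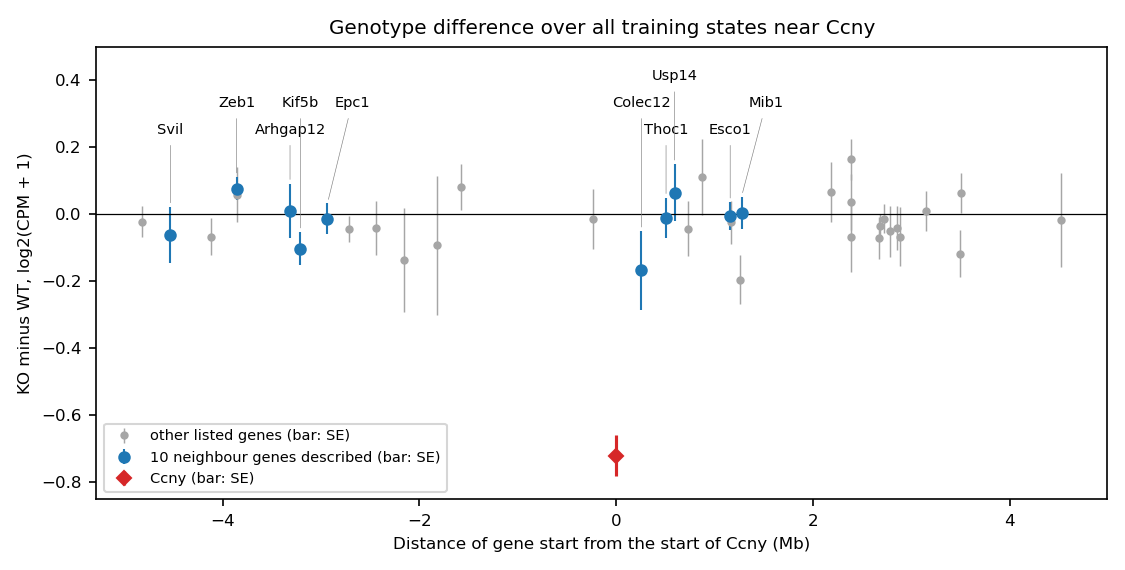
Difference between KO and WT over all training states in log2(CPM + 1), against the distance in Mb of each gene's start from the start of *Ccny*, for the 38 listed genes within 5 Mb with bars of 1 standard error. *Ccny* lies at -0.72, and the 37 other genes lie between -0.20 and 0.16.

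No other gene listed around the locus passed either. Of 35 further genes near *Ccny* written into a list, 27 were in the table, and 0 passed the test. At an unadjusted p under 0.05 by limma there were 2 of the 27, beside 8.36% of all genes. Their median difference was -0.03 log2 units. The 5 with the smallest p were *Cables1*, a regulator of cyclin-dependent kinases (21.2 CPM on average in WT and 23.6 CPM in KO mice, log2 difference 0.165, adjusted p = 0.504 from limma), *Abhd3*, a lipid hydrolase (65.6 and 57.6 CPM, difference -0.20, adjusted p = 0.504), *Osbpl1a*, an oxysterol-binding protein (difference -0.12), *Wac*, an adaptor of histone ubiquitination (0.08), and *Zfp438*, a zinc finger protein (-0.07). *Cables1* and *Abhd3* lie 2.39 and 1.26 Mb from *Ccny*, on the side of *Mib1*.

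The size of the genotype difference did not fall steadily with distance from *Ccny*. The median size of the difference between KO and WT was 0.0659 log2 units for the 18 genes up to 2.5 Mb away, 0.0503 for the 19 genes between 2.5 and 5 Mb, 0.0334 for 13 genes between 5 and 10 Mb, 0.0475 for 29 genes between 10 and 20 Mb and 0.0615 for the 342 genes farther away on the chromosome. On other chromosomes it was 0.0571 log2 units over 14768 genes. Of the 37 genes within 5 Mb, 0 passed the adjusted test and 8.11% had an unadjusted p under 0.05 by limma, beside 8.36% of all genes. The remaining 4 genes called by genotype lay on other chromosomes.

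**Figure D3:**
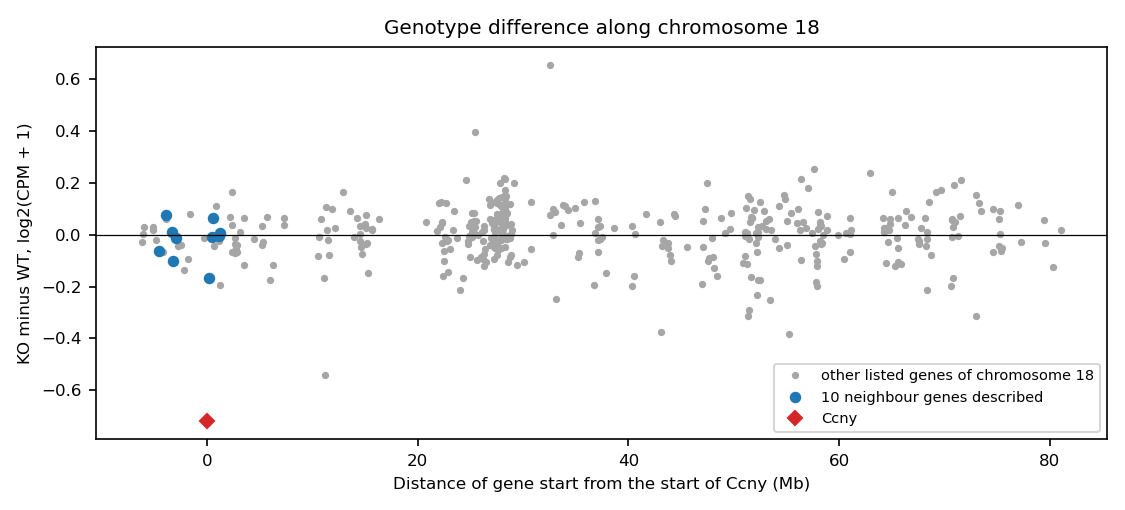
Difference between KO and WT over all training states in log2(CPM + 1) for the listed genes of chromosome 18, against the distance in Mb of each gene's start from that of *Ccny*. The 10 neighbours in blue lie between -0.17 and 0.08, *Ccny* in red at -0.72, and the 342 genes over 20 Mb away between -0.38 and 0.66.

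Each training state was then compared on its own. In untrained mice 0 of the 10 neighbours passed between the genotypes by limma (0.0196% of all genes). At an unadjusted p under 0.05 there were 0, beside 4.0% of all genes. The differences ran from -0.15 for *Mib1* to 0.11 for *Zeb1* on the log2 scale. The mice of the genotypes did not overlap in 1 of the 10, *Zeb1*, beside 14.7% of all genes. All 8 choroid plexus markers had an unadjusted p under 0.05 in this comparison and 0 passed adjustment by limma, with a median difference of -2.55 log2 units, and their part in the values of the neighbours was not tested. After reversal learning again 0 of 10 passed (0.0% of all genes), with 1 at an unadjusted p under 0.05 (4.93% of all genes). The largest differences there were 0.19 log2 units for *Thoc1* (adjusted p = 0.986 from limma) and -0.14 for *Epc1*. *Zeb1* and *Epc1* were the 2 genes without overlap, beside 8.18% of all genes. *Epc1* measured 42.5, 38.2 and 38.2 CPM in WT_RL and 33.0, 37.2 and 37.1 CPM in KO_RL.

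The OL state held the largest genotype differences of the neighbours, and none passed adjustment. There 0 of 10 genes were called by limma (0.0652% of all genes) and 3 had an unadjusted p under 0.05, where 18% of all genes did. *Thoc1* measured 24.6, 25.9 and 19.9 CPM in WT_OL and 16.9, 20.9 and 17.9 CPM in KO_OL, a log2 difference of -0.32 (standard error 0.104, adjusted p = 0.182 from limma). One WT and one KO mouse overlapped. The difference of *Kif5b* in this state was -0.24 log2 units (standard error 0.0854, adjusted p = 0.195 from limma). Both values depended on which WT mice were included. WT_OL replicate 3, at 19.9 CPM for *Thoc1* and 331 CPM for *Kif5b*, lay within the KO_OL range of both genes. Without WT_OL replicate 3, *Thoc1* differed by -0.43 (adjusted p = 0.0138 from limma) and *Kif5b* by -0.32 log2 units (adjusted p = 0.0213 from limma), while 2536 genes of the table were then called in place of 10. Without WT_OL replicate 2, the differences were -0.24 and -0.17 log2 units (adjusted p = 0.639 and 0.678 from limma). By the paper's mapping statistics, every WT_OL library mapped at a lower rate than every KO_OL library. WT_OL replicate 3 mapped close to the KO_OL rates, and replicates 1 and 2 farther below them. The part of this difference between libraries in the OL genotype values, with or without replicate 3, was not tested.

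*Colec12* and *Svil* did not overlap between the genotypes after original learning, 2 of 10 genes beside 16.5% of all genes. *Colec12* measured 17.8, 16.1 and 15.2 CPM in WT_OL and 11.2, 11.1 and 11.1 CPM in KO_OL, a log2 difference of -0.51 (standard error 0.203, adjusted p = 0.218 from limma). *Svil* measured 13.1, 14.1 and 13.2 CPM against 10.9, 11.1 and 12.4 CPM, a difference of -0.22 log2 units (adjusted p = 0.426 from limma). In the Basal state both genes overlapped widely, *Colec12* at 18.3, 9.82 and 13.5 CPM in WT and 13.8, 10.5 and 14.5 CPM in KO mice. The RL mice overlapped as well, with *Colec12* at 8.62, 13.9 and 16.2 CPM in WT and 15.4, 12.6 and 12.1 CPM in KO mice.

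Markers of vessels, meninges and some other cell types moved in the same direction in these mice. The summed level of 8 smooth muscle markers was 108 to 136 CPM in WT_OL and 65.1 to 69.5 CPM in KO_OL, that of 8 endothelial markers 247 to 272 and 183 to 209 CPM, and that of 8 meningeal fibroblast markers 367 to 426 and 288 to 359 CPM. Of these markers 7, 6 and 5 of 8 had an unadjusted p under 0.05 in the OL state, beside 18% of all genes. By limma 0 passed adjustment, and none was at 0 in every library. Summed oligodendrocyte markers were at 7270 to 10600 CPM in WT_OL and 4890 to 6410 CPM in KO_OL. Those of 6 astrocyte markers were at 5490 to 6470 and 4870 to 5060 CPM. The 8 hippocampal neuron markers went the other way, with differences between KO and WT of 0.05 to 0.54 log2 units in OL. The smooth muscle sum was also lower in KO_Basal (62.4 to 84.5 CPM) than in WT_Basal (98.2 to 174 CPM). In that state *Colec12* and *Svil* overlapped, with differences of -0.068 and 0.026 log2 units. In the RL state the smooth muscle sum overlapped between genotypes, at 66.1 to 147 CPM in WT and 75.6 to 101 CPM in KO mice. The part of cell makeup in the values of *Colec12* and *Svil* was not tested. In RNA from whole tissue, fewer cells of a type and less RNA per cell cannot be told apart.

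**Figure D4:**
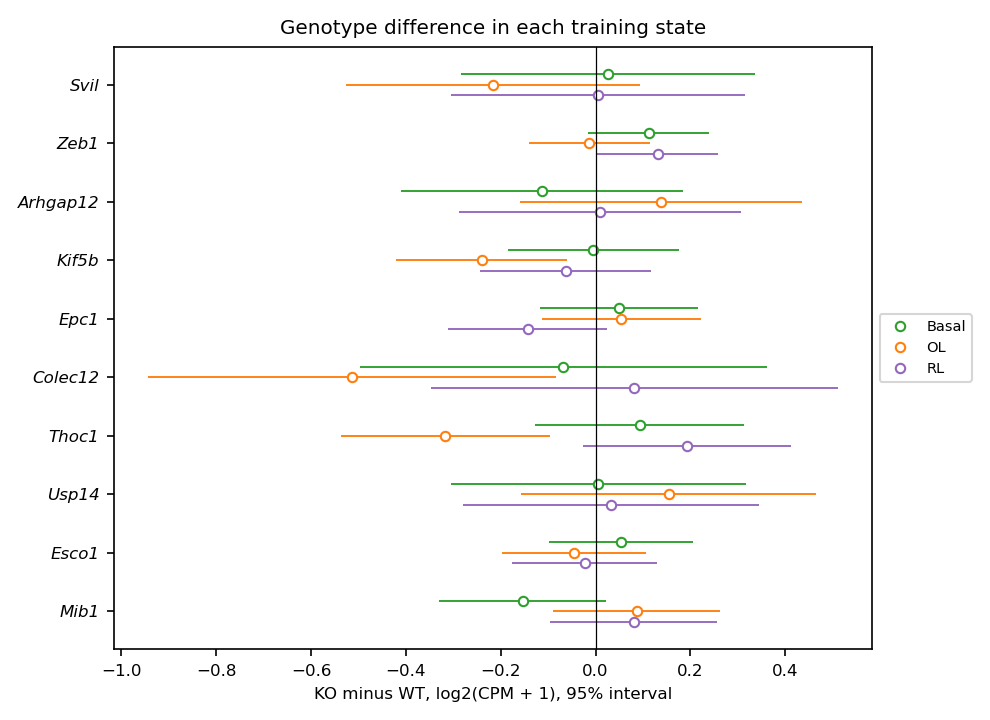
Difference between KO and WT in log2(CPM + 1) for the 10 neighbours in each training state, with 95% intervals and open circles for an adjusted p above 0.05 by limma. The intervals of *Colec12*, *Thoc1* and *Kif5b* lie below 0 in the OL state alone, and no difference passed adjustment.

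Whether a genotype difference itself changed with training was tested as an interaction. For OL less Basal, 0 of 10 genes passed by limma (0.0% of all genes), with 1 at an unadjusted p under 0.05 (12.4% of all genes). *Thoc1* had the smallest p there, with a difference of -0.41 log2 units (95% interval -0.722 to -0.1, adjusted p = 0.388 from limma). Without WT_OL replicate 3 it was -0.52 (adjusted p = 0.04 from limma). The part of the lower mapping rates of WT_OL than of KO_OL libraries in the values of this paragraph was not tested. For RL less Basal, 0 of 10 genes passed (0.0%), with 0 at an unadjusted p under 0.05 (4.99% of all genes). RL less OL, a comparison chosen after the data were seen, also gave 0 of 10 (0.0%). It had 1 at an unadjusted p under 0.05, beside 7.98% of all genes. In it *Thoc1* had a difference of 0.51 log2 units (95% interval 0.2 to 0.822, adjusted p = 0.47 from limma), since it was lower in KO than in WT mice on average after original learning and higher after reversal learning.

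Part of the neighbourhood differed between trained and untrained mice in both genotypes. After original learning, *Mib1* rose and *Kif5b* fell in WT mice, 2 of 10 genes by limma beside 9.5% of all genes. In KO mice *Mib1* rose and *Thoc1*, *Kif5b* and *Esco1* fell, 4 of 10 beside 23.5%. After reversal learning the same 4 genes passed in the same directions in WT mice, beside 15.7% of all genes, and in KO mice, beside 23.6%. The 2 training states of a genotype share its Basal mice, so these comparisons are not independent. In the paper's mapping statistics, every Basal library mapped at a lower rate than every KO_OL, WT_RL and KO_RL library. WT_OL replicates 1 and 2 mapped near the Basal rates, and WT_OL replicate 3 within those of the other trained groups. The part of this difference between libraries in the training comparisons was not tested. Groups did not overlap for 5 of 10 genes after original learning in WT (28.3% of all genes) and 5 in KO mice (48.8%), and after reversal learning for 5 in WT (34.3%) and 6 in KO mice (45.3%). Between the reversal and original learning groups, 0 of 10 genes passed in WT (0.261% of all genes) and 0 in KO mice (0.0196%). At an unadjusted p under 0.05 by limma there were 2 in WT (16.4% of all genes) and 1 in KO mice (4.81%).

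Markers of other cell types also differed between these groups. The summed level of 8 choroid plexus markers was 49.1 to 669 CPM in KO_Basal, 2410 to 4660 CPM in KO_OL and 1330 to 5030 CPM in KO_RL, and 8 of the 8 passed as higher in KO_OL and 6 of 8 in KO_RL by limma. In WT mice the sum was 860 to 4360 CPM in Basal, 1880 to 3300 CPM in OL and 44.5 to 8430 CPM in RL, and 0 of 8 passed in either training state. Of 6 microglia markers, 3 passed as lower in KO_OL and 4 in KO_RL, and in WT mice 2 passed as higher and 1 as lower in each training state. The part of these cells in the values of the neighbours was not tested.

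*Mib1* changed most. It was at 63.0, 55.0 and 52.9 CPM in WT_Basal, at 82.5, 70.2 and 84.1 CPM in WT_OL and at 88.4, 82.6 and 93.6 CPM in WT_RL. In KO mice it was at 54.4, 48.9 and 49.8 CPM in Basal, at 82.4, 82.5 and 86.1 CPM in OL and at 91.5, 99.6 and 89.0 CPM in RL. Every trained mouse lay above every untrained mouse of either genotype. In WT mice the log2 difference from Basal was 0.46 in OL (standard error 0.0833, adjusted p = 0.00315 from limma, or 0.0937 with only the libraries of the groups compared) and 0.62 in RL (adjusted p = 0.000276 from limma). In KO mice it was 0.70 in OL (adjusted p = 4.78e-05 from limma) and 0.86 in RL (adjusted p = 1.14e-05 from limma), or 1.81-fold. The rise was larger in KO than in WT mice by 0.24 log2 units in OL (95% interval -0.009 to 0.49, adjusted p = 0.402 from limma) and by 0.23 in RL, which the tests did not separate from 0. Untrained KO mice started at 51.0 ± 2.95 CPM (SD, n = 3) and untrained WT mice at 57.0 ± 5.30 CPM, a difference of -0.15 log2 units, and the trained groups differed between genotypes by 0.09 in OL and 0.08 log2 units in RL.

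*Kif5b* fell in all 4 comparisons. Its mean went from 454 ± 40.0 CPM (SD, n = 3) in WT_Basal to 370 ± 38.4 CPM in WT_OL and 346 ± 16.8 CPM in WT_RL. In KO mice it went from 451 ± 16.3 CPM to 313 ± 17.2 CPM in OL and 332 ± 16.4 CPM in RL. No trained mouse reached the range of its untrained group, although the highest WT_OL mouse, at 407 CPM, was close to the lowest WT_Basal mouse, at 408 CPM. On the log2 scale *Kif5b* fell by 0.29 in WT_OL (adjusted p = 0.04 from limma) and by 0.53 in KO_OL (adjusted p = 0.000468). In RL it fell by 0.39 in WT and fell by 0.445 in KO mice (adjusted p = 0.00676 and 0.00171 from limma). The WT_OL value was the weakest of these, and its adjusted p rose to between 0.0748 and 0.155 without any one of WT_OL replicates 1 and 3 or WT_Basal replicates 1 and 3.

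*Thoc1* was at 27.9, 28.4 and 28.8 CPM in WT_Basal and 31.2, 28.6 and 31.2 CPM in KO_Basal. After reversal learning it was at 18.9, 17.7 and 20.7 CPM in WT and 21.4, 24.6 and 20.1 CPM in KO mice, below every untrained mouse. It fell by 0.68 on the log2 scale in KO_OL (adjusted p = 0.000308 from limma), by 0.55 in WT_RL (adjusted p = 0.0027) and by 0.45 in KO_RL (adjusted p = 0.00575). In WT_OL its difference was -0.27 log2 units, which missed the threshold (adjusted p = 0.11 from limma), although no WT_OL mouse reached the untrained range. Its overlapping neighbour *Usp14* was likewise below the untrained range in all 4 comparisons and passed in none. The highest KO_RL mouse and the lowest KO_Basal mouse were nearly tied, both at 183 CPM. The differences of *Usp14* were -0.38, -0.23, -0.29 and -0.265 log2 units (adjusted p = 0.117, 0.276, 0.195 and 0.206 from limma). *Usp14* was at 164, 110 and 182 CPM in WT_OL, where the low mouse is replicate 2, against 183, 202 and 196 CPM in WT_Basal. Without that mouse the difference was -0.16, and without WT_OL replicate 3 it was -0.52 log2 units (adjusted p = 0.0253 from limma).

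*Esco1* was at 29.7, 25.6 and 27.2 CPM in WT_Basal, 26.1, 23.3 and 26.3 CPM in WT_OL and 23.6, 22.6 and 23.3 CPM in WT_RL. In KO mice it was at 28.6, 29.0 and 28.0 CPM in Basal, 23.6, 25.0 and 24.5 CPM in OL and 22.2, 24.4 and 21.8 CPM in RL. The WT_OL mice overlapped the WT_Basal mice, and the other 3 trained groups lay below their untrained groups. *Esco1* fell by 0.22 in KO_OL (adjusted p = 0.0372 from limma), by 0.24 in WT_RL (adjusted p = 0.0349) and by 0.31 on the log2 scale in KO_RL (adjusted p = 0.00543). The KO_OL call was lost without any single one of its 6 mice (adjusted p = 0.0585 to 0.121 from limma), and the WT_RL call without any of 5 of its 6 mice (0.0606 to 0.166).

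The remaining neighbours did not pass after training. *Zeb1*, *Epc1*, *Svil*, *Colec12* and *Arhgap12* had log2 differences from Basal between -0.275 and 0.26, with *Arhgap12* lowest and *Colec12* highest, both in WT_OL. *Arhgap12* was at 92.8, 101 and 94.3 CPM in WT_Basal and 88.3, 62.8 and 89.7 CPM in WT_OL, and without replicate 2, the low mouse, its difference was -0.11 log2 units (adjusted p = 0.694 from limma). *Epc1* stayed between 33.0 and 42.5 CPM over all 18 libraries. Over the 10 neighbours the median difference was -0.08 in OL and -0.09 in RL for WT mice, and -0.13 in OL and -0.08 in RL for KO mice, with medians over all genes between -0.007 and 0.001 log2 units. Of the other 27 genes near *Ccny*, 2 rose and 2 fell in WT_OL (beside 9.5% of all genes called), 0 rose and 5 fell in KO_OL (23.5%), 1 rose and 2 fell in WT_RL (15.7%), and 1 rose and 3 fell in KO_RL (23.6%).

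**Figure D5:**
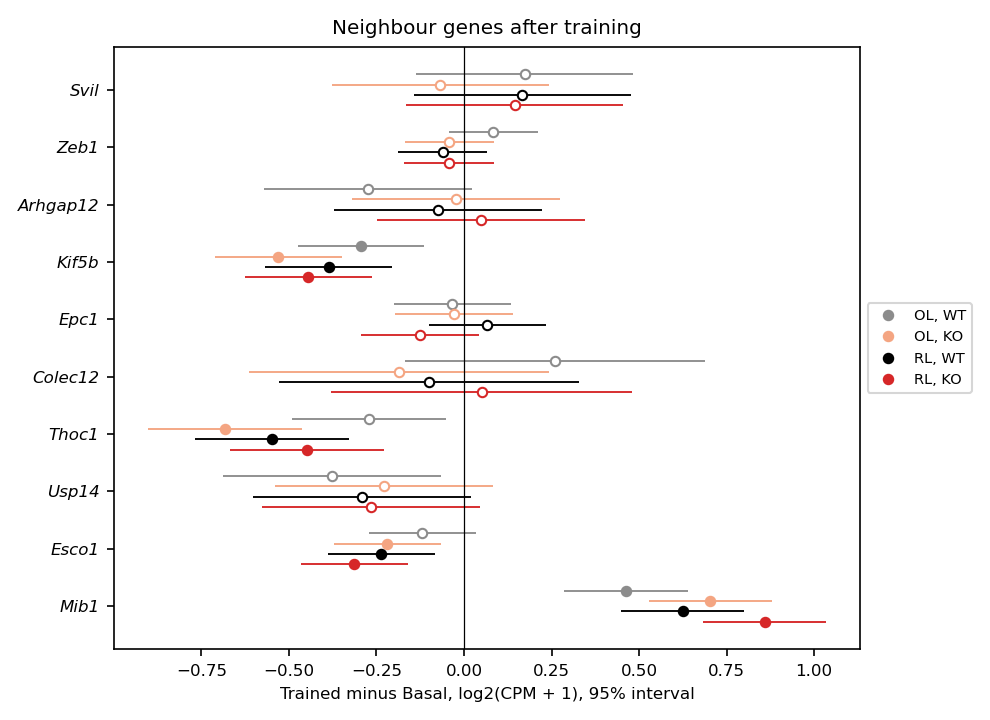
Difference of each trained group from the Basal group of its genotype in log2(CPM + 1), with 95% intervals and filled circles for an adjusted p under 0.05 by limma. *Mib1* is higher by 0.46 to 0.86, *Kif5b* is lower in all 4 comparisons, and *Thoc1* and *Esco1* pass in 3 of the 4.

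No partner of the neighbours encoded elsewhere in the genome passed by genotype. In the pooled comparison of KO and WT mice, 0 genes passed by limma among 7 THO and mRNA export, 10 proteasome, 9 Notch pathway, 9 cohesin (of 11 listed), 5 kinesin-1 and 11 NuA4 genes. At an unadjusted p under 0.05 there were 2 genes of the Notch list, 1 of the NuA4 list and 0 of the other 4 lists. Over all genes this share was 8.36%. After original learning in WT mice, *Thoc2*, the large scaffold of the THO complex, fell by 0.43 on the log2 scale from 69.3 to 51.6 CPM (adjusted p = 0.0478 from limma). It was the 1 of 7 THO genes to pass, in a comparison in which 9.5% of all genes did. *Psmc6*, an ATPase of the proteasome base, fell by 0.20 (adjusted p = 0.0475), 1 of 10 genes, and *Ing3*, a histone reader of NuA4, fell by 0.37 (adjusted p = 0.0129), 1 of 11 genes. *Klc2*, a kinesin light chain, rose by 0.25 (adjusted p = 0.0452 from limma) while the motor chain *Kif5b* fell, and *Mau2*, a loader of cohesin, rose by 0.25 (adjusted p = 0.0359). None of the 9 Notch genes passed in WT_OL beside the rise of *Mib1*, and 3 had an unadjusted p under 0.05 (25.9% of all genes).

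The pattern of *Zeb1* over the 18 libraries, the neighbour with the smallest genotype p, was most like that of *Klhdc8b* (Pearson r = 0.771), *Cep72* (0.737) and *Frs3* (0.726) among all genes of the table. It was least like those of *Fam21* (r = -0.785), *Lrrn4* (-0.727) and *Ptgs2* (-0.717), the last encoding the inducible cyclooxygenase. These correlations describe the 18 libraries, which share groups, and carry no test.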

How the data were processed

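Poly(A)-selected RNA from hippocampi gave 18 paired-end libraries, read from the labels as 1 for each mouse, and p-values measure the spread between these libraries. According to the submitters' processing notes, the authors aligned reads to mm10 with STAR 2.5.1 and normalized counts with TMM in edgeR 3.12.1 under R 3.3.0. They deposited 1 table of log2 values. The methods describe CPM floored at 1, but the deposited log2 values behave as log2(CPM + 1): every value came out as a whole number of reads within 0.01 read (100% of values).

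Groups were taken from the labels. The log2 values of all 15329 genes, each above 0 in at least 3 libraries, were fitted with limma 3.58.1 in R 4.3.3 (1 mean per group over 18 libraries, eBayes with a variance trend, two-sided tests), with Benjamini-Hochberg adjustment over all genes. A call is an adjusted p under 0.05. The fit was checked on simulated data. The design names no covariate. For the genotype effect of single neighbours, two-sided exact permutations exchanged genotypes within training states. Fold changes on the log2(CPM + 1) scale understate those of low genes. Exon lengths and positions come from GENCODE M21, in which 99.1% of listed genes had a position (451 through synonyms). The neighbours, the lists and the rule for named genes were chosen with earlier results of these data known. Named genes were the 10 neighbours and *Ccny*, the 5 listed genes near *Ccny* with the smallest genotype p, partner genes passing in the pooled genotype comparison or in WT after original learning, and the 3 genes most and least correlated with the neighbour of smallest genotype p. Alternatives were another scale, pseudocount (0.25), low-value filter (mean of 1 CPM), centring, variance model, sample set, a replicate block and leaving out single mice.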

Additional observations from a re-analysis of the deposited data

How the results depend on the processing

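Genotype calls among the 10 neighbours stayed at 0 in the pooled, Basal and RL comparisons under every alternative run, and so did those for the genotype difference RL less Basal and for RL against OL in KO mice. Without single mice, the calls ranged from 0 to 2 for KO against WT in OL, from 0 to 1 for RL less OL in WT, from 0 to 1 for the difference OL less Basal between genotypes, and from 1 to 2 for OL against Basal in WT. In that last comparison 1 neighbour was called with the replicate block and 0 with only the libraries of the groups compared (adjusted p = 0.0937 for *Mib1* and 0.234 for *Kif5b* from limma), where 74 genes of the table were called in place of 1457. The cause was not tested. Replicate numbers did not pair mice (r of same-numbered deviations -0.635 to 0.547 over 45 pairs, median -0.0227), and apart from *Kif5b* in WT_OL (adjusted p = 0.0536 from limma) the replicate block changed no call. Exact permutation p-values under 0.05 were found for 1 neighbour, for 2 with median centring, and for 1 to 3 without single mice (3 without WT_RL replicate 1). The median size of the genotype difference near *Ccny* was 0.0594 log2 units within 5 Mb. It was 0.042 over the nearest genes, up to 20 on each side (39 genes). Over all genes, the pooled genotype count of 5 ran from 3 to 66 without single mice (66 without WT_RL replicate 1) and from 3 to 8 otherwise.

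Of 1032 neighbour values under alternatives, 964 kept their direction and their side of the threshold, 19 lost the call, 6 gained one and 43 changed sign, none of those 43 in a called value. Pooled *Mib1* was -0.002 under median centring. Without single mice, the pooled log2 differences ranged from -0.047 to 0.014 for *Thoc1*, -0.007 to 0.113 for *Usp14*, -0.023 to 0.013 for *Esco1*, -0.022 to 0.029 for *Mib1*, -0.044 to 0.055 for *Arhgap12*, -0.038 to 0.016 for *Epc1*, -0.248 to -0.097 for *Colec12* and -0.11 to -0.006 for *Svil*, and in OL from -0.036 to 0.018 for *Zeb1*. After training they ranged from -0.12 to 0.04 for *Epc1* in WT_OL, -0.235 to 0.075 for *Svil* and -0.11 to 0.066 for *Arhgap12* in KO_OL, -0.309 to 0.145 for *Colec12* and -0.205 to 0.042 for *Arhgap12* in WT_RL, and -0.083 to 0.133 for *Colec12*, -0.022 to 0.288 for *Svil* and -0.017 to 0.137 for *Arhgap12* in KO_RL.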
